A study of Mus musculus with 8 samples.

Results

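This comparison covers 2 libraries of the mouse melanoma line B16-F10, both from cells grown on matrix that smooth muscle cells had laid down in the medium abbreviated SFM. They are SFM siFN, whose matrix came from smooth muscle cells given siFN, and SFM siKLF4-siFN, whose matrix came from cells given siKLF4 together with siFN, so that siFN is common to both and siKLF4 is what was added. These are 2 of the 8 libraries of the series, which combine 2 media with the 4 siRNA treatments siNT, siKLF4, siFN and siKLF4-siFN. In every condition the smooth muscle cells received siRNA for 72 hours, spent 72 hours more in the medium of their group and were lysed, and the melanoma cells then grew on the washed matrix for 24 hours. The labels do not spell out SFM, TCM, siNT or siFN. The series title names tumor conditioned media, and siFN is read here as directed at fibronectin. The siRNA was given to the smooth muscle cells and not to the melanoma cells, and no value from the smooth muscle cells or their matrix is among the data used here. Genes were kept when their FPKM (a read level set per gene length and per library size) was at least 5 in either library, which left 2837 of 46477 rows of the table (6.1%), 1933 of them protein coding and 720 of them pseudogenes. The difference of log2(FPKM + 1), SFM siKLF4-siFN minus SFM siFN, was taken for each. A gene is called higher or lower when this difference reached 1 or -1. A gene with FPKM under 5 in 1 of the libraries passed only through the other, so the filter bears on its sign.

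Fibronectin is a glycoprotein of the extracellular matrix that cells grip through integrins, and KLF4 is a transcription factor that in smooth muscle cells takes part in the loss of contractile identity. Melanoma cells on a matrix read it through integrins and other adhesion receptors, and their pigment program is driven by the transcription factors MITF and SOX10, which act on genes of melanin synthesis such as Dct, Pmel and Slc45a2. The comparison asks how the melanoma transcriptome differs when KLF4 was targeted in addition to fibronectin in the cells that made the matrix.

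With 1 library per condition, no difference below has a replicate check, and no p-value is given. Both libraries stood apart from the others in genes of dividing cells: the summed FPKM of 46 mitosis genes was 19.2 with siFN alone and 18.3 with both siRNAs, against 45.0 to 145 in the other 6. Neither library has a substitute, so no result can be given without them. The estimated depth was 21000000 reads for SFM siFN against 12900000 for SFM siKLF4-siFN, within a range of 11600000 to 23000000 over the 8. The median gene kept here then has 582 and 383 reads and a counting error of 0.1 on the log2 scale. Of 8 melanoma markers 6 passed the filter, with a summed FPKM of 355 with siFN alone and 533 with both siRNAs. Among 13 smooth muscle markers Mcam alone passed, an adhesion molecule that melanoma cells also make, and 3 were at 0 in both libraries. The summed smooth muscle markers stood at 20.1 and 35.6, against 20.8 to 34.8 elsewhere. No fibroblast, endothelial or leukocyte marker passed, and their sums changed from 1.21 to 1.73, from 3.74 to 4.61 and from 3.66 to 2.79. All 37 rows of mitochondrially encoded genes were listed at 0, so a 0 in this table need not mean low expression. The Klf4 of the melanoma cells themselves stood at 8.62 with siFN alone and at 5.79 with both siRNAs (-0.50), which were the highest and the lowest of the 8 libraries. Fn1 was below the filter at 3.12 and 3.10. Neither checks the labels, since other cells were treated.

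Most genes were a little higher with siKLF4 added, while the large differences lay mainly on the lower side. Of the 2837 genes 1844 (65.0%) were above 0, with a median difference of 0.13, an SD of 0.47 and 10th and 90th percentiles of -0.51 and 0.51. By the call, 29 genes were higher (1.02% of genes) and 92 were lower (3.24%). The higher calls held 2 protein-coding genes (0.103% of 1933), 19 pseudogenes, 7 rows with no annotation match and 1 gene of another type. The lower calls held 45 protein-coding genes (2.33%), 39 pseudogenes, 2 rows with no match and 6 genes of other types. After centring on the median gene the split was 18 higher and 120 lower. At a difference of 0.5 the sides were of like size, with 300 genes higher and 295 lower. Among genes with official names, Tigd2 (-1.015) was the last inside the call and Ccdc47 (-0.9963) the first outside on the lower side. Mapk8ip1 (1.004) and Slc45a2 (0.9888) held these places on the higher side. Chmp7, Dhx16 and Ipo13 just passed the FPKM filter with a highest value of 5.0, and Rfng, Irf3 and Psma2 just missed it at 4.99. All 112 called genes with an annotated length differed by at least 2 counting errors, a measure that leaves out variation between cultures. The call already asks for a difference of 1, against a median counting error of 0.15 in these genes, so this count adds no support. In such bulk libraries fewer cells of a kind and less RNA per cell cannot be told apart.

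**Figure D1:**
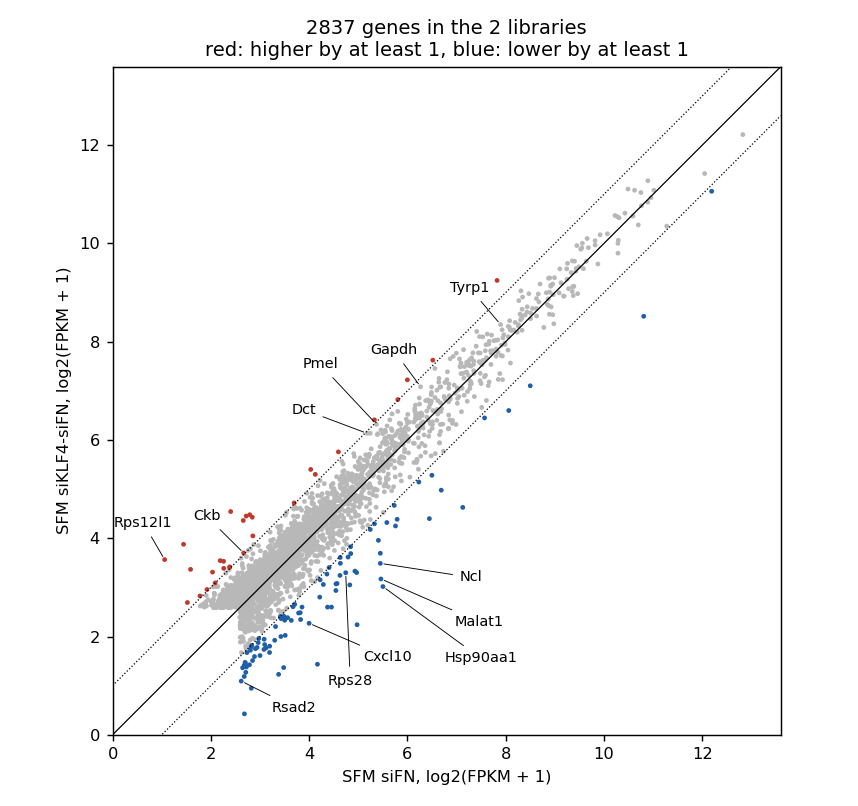
Each point is 1 of 2837 genes, with the log2(FPKM + 1) of SFM siFN on the x axis and that of SFM siKLF4-siFN on the y axis. The solid line marks equal values and the dotted lines a difference of 1 or -1, with 29 red points above and 92 blue points below.

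The place of both libraries among the 8 is given as a description, since the lower genes were chosen for a low value in SFM siKLF4-siFN relative to SFM siFN. SFM siKLF4-siFN was the lowest of the 8 for 90 of the 92 lower genes (18.3% of all 2837 genes), and SFM siFN was the highest for 17 (12.8% of all genes). Values in the other 6 libraries are given below in the order SFM siNT, SFM siKLF4, TCM siNT, TCM siKLF4, TCM siFN and TCM siKLF4-siFN.

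Among named genes, Hsp90aa1 on chromosome 12 (110690605 to 110702728), the inducible cytosolic HSP90 chaperone, had the largest negative difference. Its FPKM of 44.3 in SFM siFN compared with 7.09 in SFM siKLF4-siFN, and with 59.8, 67.9, 25.9, 26.5, 55.9 and 65.0 in the other libraries. The value with both siRNAs was thus below each of the other 7, 6.25-fold lower in FPKM than with siFN alone (difference -2.49, counting error 0.08). With siNT as the base on the same matrix, siKLF4 gave 0.18 for this gene, so the difference of the differences was -2.67. Malat1, a nuclear long noncoding RNA, stood at 43.1 and 8.01, against 14.7, 22, 34.2, 14.1, 36.9 and 38.7 elsewhere. Here SFM siFN was the highest library and SFM siKLF4-siFN the lowest (-2.29). Rab39b, a small GTPase of vesicle traffic, also had its highest value in SFM siFN (6.07) and its lowest in SFM siKLF4-siFN (0.927), with 2.03 to 5.07 elsewhere (-1.88, counting error 0.24).

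Proteins of the nucleolus, where ribosomes are assembled, were among these genes. Ncl, which encodes nucleolin, on chromosome 1 (86344719 to 86359400), had an FPKM of 42.7 in SFM siFN, of 10.2 in SFM siKLF4-siFN, and of 30.8, 38.1, 26.0, 24.0, 41.5 and 43.4 in the other libraries. Its value with both siRNAs was 4.17-fold lower than with siFN (-1.96) and below all others. Npm1, which encodes nucleophosmin, stood at 42.7 and 11.9, against 29.6 to 50.1 elsewhere (-1.75). Purb, a DNA and RNA binding protein, stood at 19.7 and 5.06, against 17.6 to 31.6 (-1.78). In all 3 genes SFM siFN lay inside the range of the other 6 libraries and SFM siKLF4-siFN below it.

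Regulators of cell state showed unlike values in the other libraries. For Ccng1, the p53-induced cyclin G1, SFM siFN itself was low at 27.4, with 7.29 in SFM siKLF4-siFN, and 70.3, 72.6, 22, 44.7, 68.2 and 69.3 in the other libraries (-1.78). Sox4, a transcription factor linked to an undifferentiated state, was highest in SFM siFN at 30.3 and lowest in SFM siKLF4-siFN at 8.87, with 17.3 to 27.6 elsewhere (-1.66). Other p53 targets differed less than Ccng1. Of the 13 that passed the filter, Ccng1 included, 6 were above and 7 below 0 (median -0.01), with Cdkn1a, the p21 inhibitor of cell cycle kinases, at 25 and 24.8, Mdm2 at -0.28 and Trp53inp1 at -0.90. Rn7s2, a 7SL RNA, was listed at 9.40 and 1.35 (-2.15, counting error 0.66), while its near copy Rn7s1 was listed at 5.43 and 8.03 (0.49), and reads may be split between them.

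The genes at the ends of the range differ in base composition, and stretches of their coding sequence are shown for that reason. Each is the middle 120 bases of the longest coding exon in GENCODE M21 (GRCm38), 5′ to 3′ on the coding strand, with G and C in capitals. The first 3 are from the protein-coding genes with the largest negative differences and the last 3 from those with the largest positive ones. They lie in exon 3 of 11 of Hsp90aa1 (chr12:110695176-110695295, minus strand), exon 3 of 14 of Ncl (chr1:86357145-86357264, minus), exon 2 of 2 of Rab39b (chrX:75574736-75574855, minus), exon 2 of 8 of Ckb (chr12:111671803-111671922, minus), exon 5 of 12 of Mapk8ip1 (chr2:92386918-92387037, minus) and exon 1 of 7 of Slc45a2 (chr15:11000950-11001069, plus).
Hsp90aa1: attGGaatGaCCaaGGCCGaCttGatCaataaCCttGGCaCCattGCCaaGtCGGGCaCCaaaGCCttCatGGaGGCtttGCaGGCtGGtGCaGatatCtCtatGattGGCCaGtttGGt
Ncl: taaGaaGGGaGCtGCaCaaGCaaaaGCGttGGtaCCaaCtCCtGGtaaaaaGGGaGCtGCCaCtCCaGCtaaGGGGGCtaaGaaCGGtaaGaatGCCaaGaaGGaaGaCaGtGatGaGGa
Rab39b: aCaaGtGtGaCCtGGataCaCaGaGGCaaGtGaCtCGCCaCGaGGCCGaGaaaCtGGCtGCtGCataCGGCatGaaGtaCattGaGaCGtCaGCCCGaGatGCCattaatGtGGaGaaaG
Ckb: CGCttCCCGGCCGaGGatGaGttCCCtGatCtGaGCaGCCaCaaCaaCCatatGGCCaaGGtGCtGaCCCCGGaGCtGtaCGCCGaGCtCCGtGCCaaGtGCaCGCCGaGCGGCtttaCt
Mapk8ip1: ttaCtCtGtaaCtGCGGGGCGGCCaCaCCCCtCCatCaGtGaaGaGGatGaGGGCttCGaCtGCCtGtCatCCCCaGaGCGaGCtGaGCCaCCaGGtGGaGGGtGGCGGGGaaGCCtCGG
Slc45a2: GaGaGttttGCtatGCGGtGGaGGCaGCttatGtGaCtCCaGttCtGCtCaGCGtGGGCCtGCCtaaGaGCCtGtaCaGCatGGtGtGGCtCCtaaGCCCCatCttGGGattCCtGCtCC
The share of G and C in these stretches is 50% in Hsp90aa1 and Ncl and 52.5% in Rab39b, against 62.5% in Ckb, 64.2% in Mapk8ip1 and 56.7% in Slc45a2. Over the whole longest transcript the contrast is wider, at 43.7%, 42.8% and 40.0% for the lower genes and 60.0%, 59.6% and 48.8% for the higher ones. Of the 120 bases of the Ncl stretch 44 are A.

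Across all protein-coding genes the difference followed the GC content of the transcript. Over 1933 genes, all read from the same 2 libraries, Spearman's rho was 0.55 and Pearson's r 0.57 as a description across genes, which are not independent replicates. In the tenth of genes with the lowest GC content (35.0% to 43.6%) the median difference was -0.44, and 171 of 194 genes were below 0. These 194 genes held 30 of the 45 lower protein-coding calls. In the tenth with the highest GC content (59.0% to 68.4%) the median was 0.28, with 20 of 194 genes below 0 and no lower call. Median GC content was 42.0% in the 45 lower genes, 52.8% in all 1933 and 55.6% in the 138 genes higher by at least 0.5. Transcript length had a rho of only -0.05, and GC content of the coding part 0.37.

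The trend with composition was stronger in SFM siKLF4-siFN than in any other library. Set against the median of the other 7 libraries, gene levels in SFM siKLF4-siFN had a rho of 0.51 with GC content, those in SFM siFN 0.11, and those in the other 6 between -0.42 and 0.39. In the other 3 pairs that add siKLF4, each over its own 1754 to 1916 coding genes, rho with GC content was -0.21 (siKLF4 minus siNT, SFM), 0.02 (siKLF4 minus siNT, TCM) and -0.21 (siKLF4-siFN minus siFN, TCM). Depth moved with the comparison as well, at 12900000 against 21000000 reads. The part that composition and depth have in the single differences was not tested. When the median of genes of like GC content was subtracted, 27 genes were higher and 36 lower by at least 1. Of 90 lower genes with a known GC content 33 kept a difference of at most -1, among them 15 protein-coding genes. Hsp90aa1 then stood at -2.06, Malat1 at -1.79, Cxcl10 at -1.72, Sox4 at -1.67, Ncl at -1.46 and Npm1 at -1.25, while Ccng1 stood at -0.99 and Klf6 at -0.66.

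**Figure D2:**
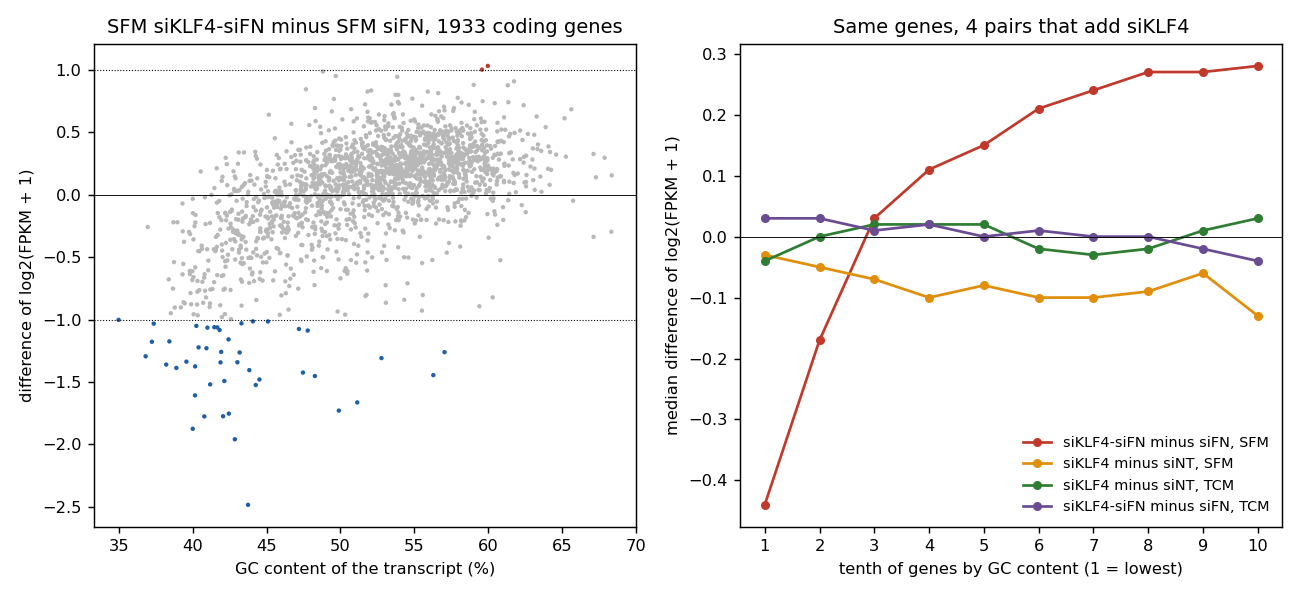
Left, the difference of log2(FPKM + 1) against the GC content of the longest transcript in percent for 1933 protein-coding genes, with red and blue points past 1 and -1. Right, the median difference of the same genes, cut into 10 equal parts by GC content, for the 4 pairs that add siKLF4: the SFM pair with siFN runs from -0.44 to 0.28, and the other 3 pairs stay between -0.13 and 0.03.

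Of 35 interferon-stimulated genes and chemokines in the list, 3 passed the filter, Cxcl10, Isg15 and Rsad2, and these were lower by at least 1 with siKLF4 added. All 3 passed only through SFM siFN, where they are higher than in SFM siKLF4-siFN, so the filter bears on their sign. Their count therefore supports nothing about the list. At a filter of 1 FPKM, 8 members could be read, all 8 below 0 and 4 of them by at least 1 (median -0.93), and with no filter the median of the list was -0.05. Cxcl10, a chemokine that draws T cells, on chromosome 5 (92346638 to 92348889), had an FPKM of 15 in SFM siFN, of 3.82 in SFM siKLF4-siFN, and of 42.8, 38.4, 7.50, 53, 50.8 and 51.2 in the other libraries (-1.73, counting error 0.15). Isg15, a ubiquitin-like modifier, stood at 11.4 and 4.02, and at 17.5, 17.4, 4.69, 20.6, 18.6 and 18.2 elsewhere (-1.31, counting error 0.25). Rsad2, the antiviral protein viperin, stood at 5.14 and 1.13, and at 7.97, 9.30, 3.04, 8.65, 11.2 and 10.9 elsewhere (-1.52, counting error 0.19). In all 3 genes SFM siFN, SFM siKLF4-siFN and TCM siNT were the 3 lowest libraries, and SFM siKLF4-siFN was the lowest of all.

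In the other pairs that add siKLF4, the lowest difference among these 3 genes was -0.15. For Cxcl10 the difference was -0.15 for siKLF4 minus siNT on SFM matrix, 2.67 for siKLF4 minus siNT on TCM matrix and 0.01 for siKLF4-siFN minus siFN on TCM matrix. For Isg15 these were 0.00, 1.92 and -0.03, and for Rsad2 0.20, 1.25 and -0.04. The TCM siNT library, low in these genes, is the base of the large positive values. After the GC content step the 3 genes stood at -1.72, -1.37 and -1.10. Summed leukocyte markers were 3.66 and 2.79, with 7 of 10 at 0 in both libraries. Genes of MHC class I presentation, which interferon also induces, lay nearer to 0: 2 of 4 were above it (median 0.00), with B2m at -0.23 and Psme1 at 0.34. The GC content step changed the sign of B2m, to 0.56.

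The promoters of these 3 genes are shown because they differed together. Each is the 250 bases before the RefSeq transcript start on GRCm38.p6, with capitals marking GAAA repeated after any 2 bases, on either strand, the core of the element bound by interferon regulatory and STAT factors. This motif was chosen after the values were seen. The windows are chr4:156200819-156201068 (Isg15), chr12:26456453-26456702 (Rsad2) and chr5:92348890-92349139 (Cxcl10), all on the minus strand.
Isg15: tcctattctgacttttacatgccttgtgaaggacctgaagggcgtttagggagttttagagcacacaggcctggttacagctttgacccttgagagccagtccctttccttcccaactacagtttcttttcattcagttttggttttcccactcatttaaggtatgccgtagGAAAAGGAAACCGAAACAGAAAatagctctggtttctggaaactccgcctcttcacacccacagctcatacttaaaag
Rsad2: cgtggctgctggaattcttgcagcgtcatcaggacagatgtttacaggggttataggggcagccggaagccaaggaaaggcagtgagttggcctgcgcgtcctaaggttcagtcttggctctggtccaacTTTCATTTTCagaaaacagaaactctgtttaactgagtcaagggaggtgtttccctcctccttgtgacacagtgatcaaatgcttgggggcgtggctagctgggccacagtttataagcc
Cxcl10: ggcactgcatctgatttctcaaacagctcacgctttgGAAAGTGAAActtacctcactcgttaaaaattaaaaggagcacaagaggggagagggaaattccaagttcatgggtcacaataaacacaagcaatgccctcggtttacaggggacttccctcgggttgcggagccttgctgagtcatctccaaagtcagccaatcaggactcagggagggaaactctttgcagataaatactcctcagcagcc
Isg15 held 3 overlapping matches, beginning between 78 and 66 bases before the start, Rsad2 held 1 at 120 bases and Cxcl10 held 1 at 213 bases. Of 32851 RefSeq promoters of this length, 978 (2.98%) held at least 1. CCAAT, held by 33.8% of all promoters on either strand, was found in Cxcl10 alone of the 3. The 6 other motifs searched were TTTGAA (in 16.0% of all promoters), TTTAAA (12.1%), the CRE motif TGACGTCA (1.55%), TGATGNAAN (3.44%), GGGCGG (32.7%) and CACGTG (6.02%), and none of them was found in these windows. A match is a run of letters and shows no binding.

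Heat shock genes, mainly chaperones of the cytosol, lay mostly below 0. Of 15 that passed the filter 12 were below 0 and 1, Hsp90aa1, by at least 1 (median -0.27). Over all genes 65.0% were above 0 (median 0.13), and 2.33% of protein-coding genes were lower by at least 1. After the GC content step the median of the 15 was -0.23. Dnaja1, a co-chaperone of HSP70, stood at 5.96 and 2.81 (-0.87), Hspa4 at 8.99 and 5.27 (-0.67), and Hspd1, the mitochondrial HSP60, at 71.7 and 45.6 (-0.64). For Hspd1 the library with siFN alone was the highest of the 8, and both siRNAs gave a value inside the range of the other 6 (44.8 to 55.4). For Dnaja1 and Hspa4 the value with both siRNAs was the lowest of the 8, and the GC content step put Dnaja1 at -0.08. Chaperones of the endoplasmic reticulum were divided, with 14 of 24 above 0 and a median of 0.11, against 65.0% of all genes and their median of 0.13. Hsp90b1, the reticulum's HSP90, stood at 54.4 and 19.9 (-1.41, and -0.98 after the GC content step) and Hspa5, the BiP chaperone, at 504 and 329 (-0.61), whereas Sdf2l1 stood at 14.5 and 23.6 (0.67). For Hspa5 SFM siFN was the highest of the 8 libraries, and SFM siKLF4-siFN lay inside the range of the other 6 (258 to 446).

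Chromatin proteins of the HMG and related families were below 0 in 8 of 8 cases (median -0.54), none by 1. Over all genes 65.0% were above 0, with a median of 0.13. Nucks1 stood at 10.7 and 4.97 (-0.97), Ptma, prothymosin alpha, at 105 and 53.7 (-0.96), and Set, a histone chaperone, at 12.4 and 6.75 (-0.79). After the GC content step the median was -0.21, and Nucks1 stood at -0.18. Splicing factors of the SR and hnRNP families were below 0 in 15 of 20 cases (median -0.11), 2 of them by at least 1, against 2.33% of all protein-coding genes. Rbm39 stood at 5.41 and 1.67 (-1.26, and -0.76 after the GC content step) and Srsf10 at 5.65 and 2.19 (-1.06, and -0.27). Both passed the filter only through SFM siFN. The median of the 20 splicing factors changed sign to 0.12 with the GC content step, and the median GC content of these genes was 43.2%. Histone genes were above 0 in 7 of 9 cases (median 0.21).

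Translation initiation factors differed among themselves. The list was added after the values were seen. Of 32 that passed, 17 were above and 15 below 0 (median 0.07), and 5 were lower by at least 1, against 2.33% of all protein-coding genes. These were Eif3j2 (22.3 and 6.66, -1.61), Eif2s2, the beta subunit of eIF2 (5.40 and 1.28, -1.49), Eif3a, the largest eIF3 subunit (13.2 and 4.08, -1.48), Pabpc1, the cytoplasmic poly(A) binding protein (74.2 and 34.4, -1.09), and Eif5 (52.1 and 24.4, -1.06). In each of the 5, SFM siKLF4-siFN was the lowest of the 8 libraries, and Eif2s2 and Eif3a passed the filter only through SFM siFN. After the GC content step Eif3a (-1.06) and Pabpc1 (-1.01) stayed past -1, while Eif3j2 (-0.82), Eif2s2 (-0.99) and Eif5 (-0.56) did not. Other eIF3 subunits lay on both sides of 0, from Eif3e at -0.78 to Eif3d at 0.41. Aminoacyl-tRNA synthetases were above 0 in 10 of 14 cases (median 0.12), against 65.0% of all genes and their median of 0.13. Farsa stood at 0.60, Sars at 0.55 and Aars at 0.52. The exception past -1 was Eprs, which charges glutamate and proline, at 10.2 and 4.32 (-1.08; -0.90 after the GC content step).

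Ribosomal protein genes of the cytosol centred on 0, and 3 of their 5 lower calls were lost when near-identical copies were added. Of 74 that passed, 32 were above and 42 below 0 (median -0.05), and 5 were lower by at least 1, against 2.33% of all protein-coding genes. Rps28 was listed at 25.8 and 8.84 (-1.45), Rpl37 at 41.5 and 14.5 (-1.45), Rps13 at 9.74 and 3.0 (-1.43), Rpl13 at 46.9 and 19.0 (-1.26) and Rpl22l1 at 26.7 and 11.3 (-1.18). Summed with their near-identical pseudogenes, Rps28 stood at 80.8 and 86.3 (0.09), Rps13 at 125 and 120 (-0.05) and Rpl13 at 225 and 203 (-0.15). These summed levels are on the scale of the coding gene and are not plain sums of FPKM. Rpl37 with its copies stayed at -1.11 and Rpl22l1 at -1.05. The values of Rps28, Rps13 and Rpl13 alone are therefore uncertain. Mitochondrial ribosomal proteins were above 0 in 23 of 31 cases (median 0.13), against 65.0% of all genes and their median of 0.13.

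Copies could be added for 13 of the 45 lower protein-coding genes, and 8 of these 13 stayed at or below -1 when summed with them. Hsp90aa1 with its 3 copies stood at 142 and 22.8 (-2.58), Npm1 with 5 copies at 87.6 and 30.8 (-1.48), and Eif2s2 with 1 copy at 18.1 and 4.23 (-1.87). These levels are on the scale of the coding gene and are not plain sums of FPKM, so the FPKM of a single copy can exceed them. Srsf10 moved to -0.92 and Lrrc58, a leucine-rich repeat protein, to -0.85. Among the 39 lower pseudogenes, 37 matched a parent gene at 90% identity or more over at least 50% of their length. For 30 of the 37 the parent was below 0 (median -0.84), for 14 by at least 1. These counts are per pseudogene, so Npm1, Hsp90aa1, Tcea1 and Pabpc1 each enter more than once. Many of the parents were below the FPKM filter, and mitochondrial parents were listed at 0 in both libraries. Carnmt1, the parent of Gm8116, had no value, so not all of the 37 parents could be read. Gm12346 and Gm5844, both copies of Hsp90aa1, stood at 139 and 23.7 (-2.50) and at 30.5 and 3.72 (-2.74). Gm10925, an identical nuclear copy of mitochondrial Atp6, was listed at 1794 and 366 (-2.29). Mitochondrial Atp6 itself was listed at 0 in both libraries, so reads of the gene and of this copy cannot be told apart. Among the 19 higher pseudogenes, 18 matched a parent. For 13 of them the parent was above 0 but for none by 1 (median 0.29), with Gapdh entering more than once. Rps12l1, an identical copy of Rps12, was listed at 1.08 and 10.8 (2.51, counting error 0.52), with 0.418 to 7.18 in the other libraries, while Rps12 itself differed by 0.35. Reads of such a copy cannot be assigned with certainty.

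**Figure D3:**
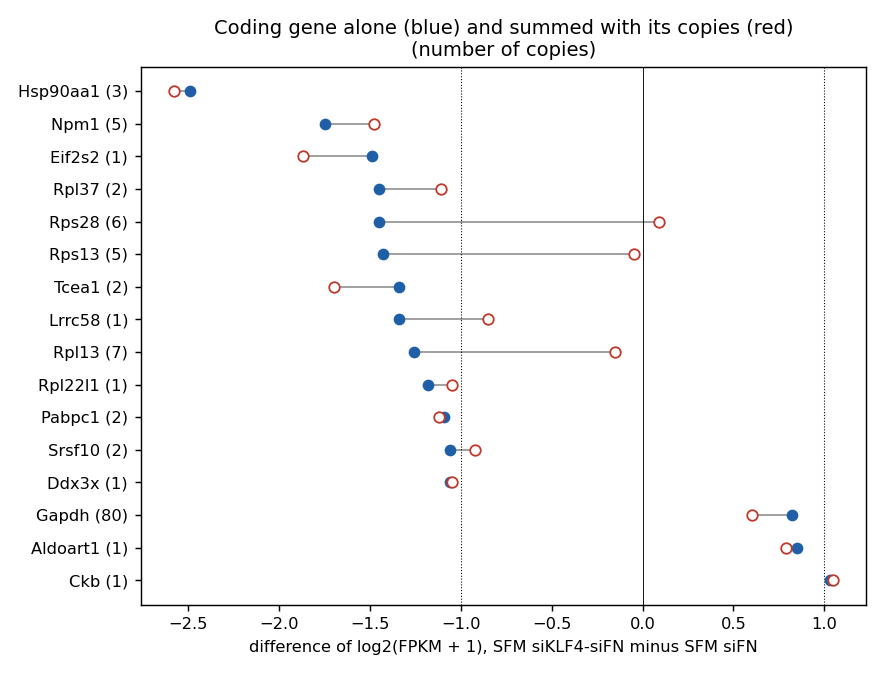
The x axis is the difference of log2(FPKM + 1) for coding genes that have near-identical copies in the table. Blue points are the gene alone and red points the gene summed with its copies, with the number of copies in parentheses. Summed levels are on the scale of the coding gene and are not plain sums of FPKM. Rps28, Rps13 and Rpl13 move to 0.09, -0.05 and -0.15, while Hsp90aa1 stays at -2.58 and Gapdh at 0.60.

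On the higher side, several of the named genes belong to pigment cells. Of 18 melanin and melanosome genes 7 passed the filter, each above 0 (median 0.45), and of 15 lineage regulators 4 did, each above 0 (median 0.71), against a median of 0.13 over all genes. Slc45a2, Mc1r and S100b passed only through SFM siKLF4-siFN, where they are higher than in SFM siFN, so the filter bears on these counts. At 1 FPKM 10 of 12 and 6 of 8 were above 0 (medians 0.31 and 0.57), and with no filter the medians were 0.09 and 0.00. Tyr, which encodes tyrosinase, stood at 1.48 and 1.32, and Mitf was listed at 0.205 and 0.131. Dct, the dopachrome tautomerase of melanin synthesis, had an FPKM of 35.3 in SFM siFN, of 69.3 in SFM siKLF4-siFN, and of 96.5, 89.5, 86.2, 86.0, 85.6 and 88.7 in the other libraries (0.95, counting error 0.03). Pmel, which forms the fibrils of melanosomes, stood at 40.4 and 78.8, and at 110, 83.9, 67.3, 88.6, 69.8 and 72.2 elsewhere (0.95). Slc45a2, a melanosomal transporter, stood at 4.17 and 9.27, against 8.26 to 12.5 elsewhere (0.99). In these 3 genes SFM siFN was the lowest of the 8 libraries. Pmel and Slc45a2 in SFM siKLF4-siFN lay inside the range of the other 6, and Dct still lay below it.

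Sox10, the transcription factor of the melanocyte lineage, stood at 11.9 with siFN alone and at 23.2 with both siRNAs, with 21.8 to 31.5 elsewhere (0.91). Mc1r, the melanocortin receptor, stood at 3.96 and 6.65, against 8.24 to 24.9 elsewhere (0.63), so it remained below all 6 other libraries. S100b stood at 3.14 and 5.24 (0.59), also under the others. Tyrp1, a melanosomal enzyme, differed from this pattern: SFM siFN at 237 lay inside the range of the other 6 (202 to 298) and SFM siKLF4-siFN at 325 above it (0.45). Mlana was close in both, at 24.4 and 25.9 (0.08). After the GC content step the medians were 0.68 for the melanin list and 0.69 for the lineage list.

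The 2 protein-coding genes past 1 were Ckb and Mapk8ip1. Ckb, the brain-type creatine kinase, had an FPKM of 5.35 in SFM siFN, of 12 in SFM siKLF4-siFN, and of 38.9, 34.1, 15.6, 47.9, 39.5 and 40.0 in the other libraries (1.03, counting error 0.11). Mapk8ip1, a scaffold of the JNK pathway, stood at 3.25 and 7.52, and at 12, 11.1, 9.71, 11.9, 10.4 and 9.54 elsewhere (1.0, counting error 0.11). For both genes the libraries with siFN on SFM matrix were the 2 lowest of the 8, and the one with both siRNAs was nearer to the rest. Cst6, a cystatin protease inhibitor, stood at 2.51 and 5.22, against 4.16 to 6.50 (0.83), and St3gal1, a sialyltransferase, at 2.44 and 5.15, against 6.79 to 10.1 (0.84). Mapk8ip1, Cst6 and St3gal1 passed the filter only through SFM siKLF4-siFN, so the filter bears on their sign. Of the 15 named genes furthest above 0, SFM siFN was the lowest library for 12 and SFM siKLF4-siFN the highest for 4. Over all 29 higher genes, most of them pseudogenes, the places were the other way round, with SFM siFN the lowest for 10 and SFM siKLF4-siFN the highest for 23. Over all 2837 genes these shares were 15.9% and 40.3%, and the choice of genes bears on each of these counts. Yam1, listed at 12.1 and 23.7 (0.91), ranged from 5.58 to 27.4 in the other libraries.

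Genes of glycolysis and the hypoxia response were above 0 in 18 of 22 cases (median 0.34), none by 1, against 65.0% of all genes and their median of 0.13. The 4 below 0, named after their values were seen, were the hypoxia-induced genes Ero1l (-0.42), Vegfa (-0.21), Bnip3 (-0.06) and P4ha1 (-0.06). Gapdh stood at 76.1 with siFN alone and at 135 with both siRNAs, and at 125, 98.5, 98.1, 115, 98.5 and 101 elsewhere (0.82), so the 2 libraries were the lowest and the highest of the 8. Tpi1, triosephosphate isomerase, repeated this at 317 and 524, against 420 to 515 (0.72). Pkm, pyruvate kinase, stood at 140 and 228 (0.70) and Pfkl, the liver phosphofructokinase, at 15.7 and 25.6 (0.68). SFM siFN was the lowest library for 13 of the 22. With 80 copies added, Gapdh stood at 437 and 661 (0.60). After the GC content step the list's median was 0.27.

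Lysosome and autophagy genes were above 0 in 24 of 27 cases (median 0.31), against 65.0% of all genes and their median of 0.13. Gpnmb, a glycoprotein of lysosomes and melanosomes, stood at 121 and 207 (0.77), and Hexa, a subunit of hexosaminidase, at 9.81 and 15.3 (0.59). Both were highest in SFM siKLF4-siFN. Lamp2, a membrane protein of lysosomes with a transcript GC content of 38.7%, went the other way at 7.92 and 4.30 (-0.75), and the GC content step put it at 0.04. Cholesterol and fatty acid synthesis genes were above 0 in 18 of 23 cases (median 0.27), set against the same 65.0% and 0.13. Mvd stood at 6.82 and 13.4 (0.88), Dhcr7 at 5.05 and 7.65 (0.51) and Ebp at 4.12 and 6.24 (0.50). Idi1, an isomerase of the same pathway, stood at 26.1 and 13.7 (-0.89), the lowest of the 8 libraries.

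**Figure D4:**
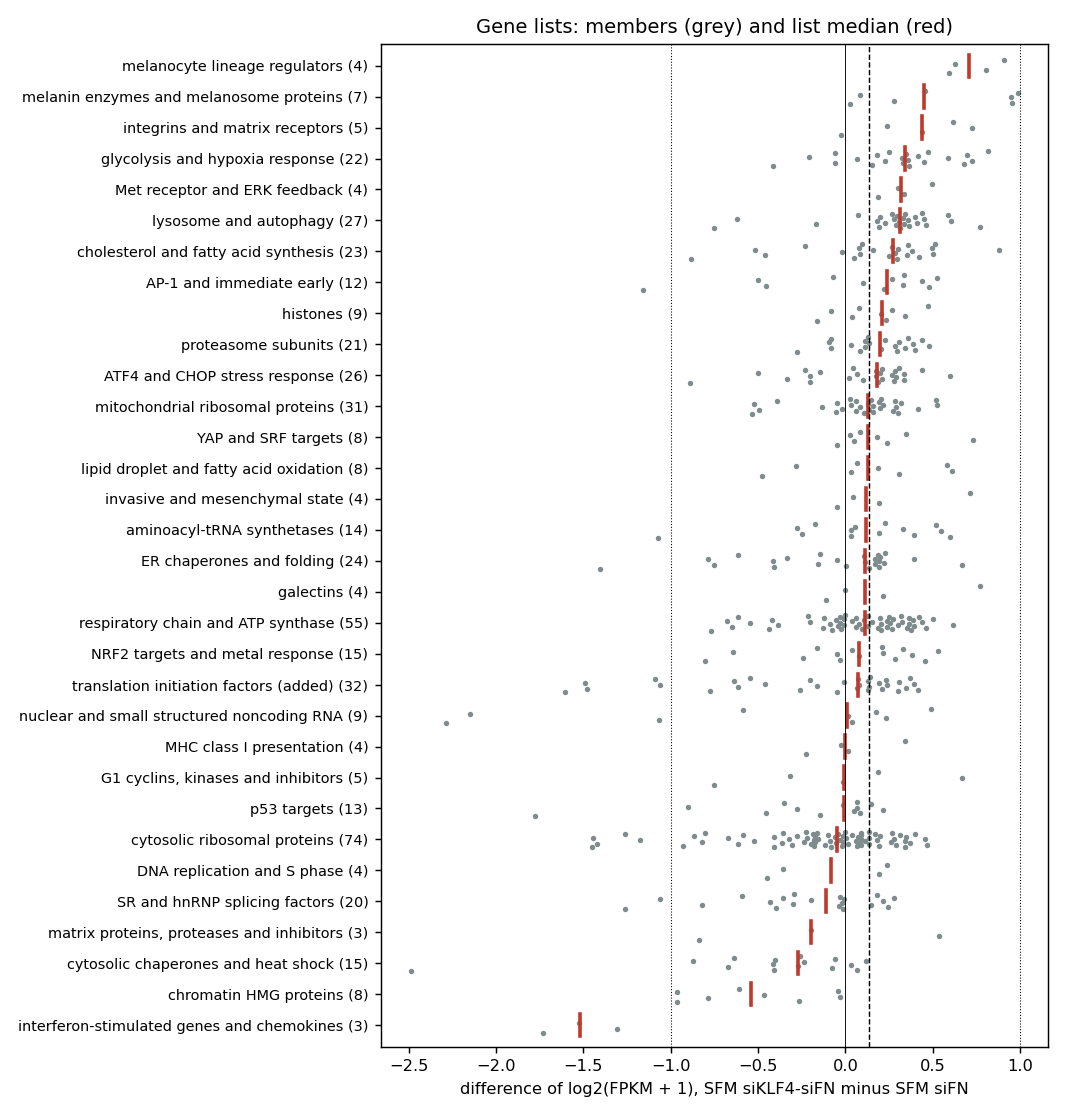
Each grey point is the difference of log2(FPKM + 1) of 1 gene, each red bar the median of its list, and the number of members that passed the filter is in parentheses. The dashed line is the median of all 2837 genes (0.13), and the lists run from a median of 0.71 for melanocyte lineage regulators to -1.52 for the 3 interferon-stimulated genes that passed the filter.

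Genes by which cells meet the matrix were few above the filter. Of 30 integrins and matrix receptors 5 passed and 4 were above 0 (median 0.44). Itgb1, the beta-1 integrin chain of the fibronectin receptors, stood at 10.7 and 10.5 (-0.03). Ilk, the integrin-linked kinase, stood at 13.4 and 22.8 (0.73), Tln1, the talin that ties integrins to actin, at 10.4 and 16.4 (0.61), and Zyx, zyxin, at 57.6 and 68.2 (0.24). Ilk was lowest in SFM siFN and highest in SFM siKLF4-siFN of the 8 libraries. Among 3 matrix proteins, proteases and inhibitors, Mmp14, a membrane-bound metalloprotease, stood at 8.33 and 4.21 (-0.84) and Lamb2, a laminin chain, at 7.57 and 11.4 (0.53). Targets of YAP and SRF had a median of 0.13 over 8 genes, with Flna, filamin A, at 41.1 and 68.9 (0.73) and Cyr61 at 28.8 and 27.8 (-0.05).

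Other lists lay near the median of all genes. Proteasome subunits were above 0 in 17 of 21 cases (median 0.20), genes of the ATF4 and CHOP stress response in 19 of 26 (median 0.18) and subunits of the respiratory chain and ATP synthase in 33 of 55 (median 0.11), none of them past 1 or -1. Within the stress response Herpud1 stood at 31.8 and 48.7 (0.60) and Cebpg at 13.0 and 6.56 (-0.89). Genes of the NRF2 and metal response had a median of 0.08 over 15 genes, with Mt2, a metallothionein, at 194 and 111 (-0.80). SFM siFN was the highest library for Mt2. Immediate early genes had a median of 0.24 over 12 genes, and Klf6, a relative of Klf4, stood at 27.8 and 11.9, with 28.5 to 35.6 elsewhere (-1.16).

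Of the 46 mitosis genes none passed the filter. At 1 FPKM 7 could be read, 4 above and 3 below 0 (median 0.07). S phase genes had a median of -0.08 over 4 genes, with Pcna, the sliding clamp of DNA replication, at 17.3 and 13.3 (-0.36) and Mcm7, a helicase subunit, at 7.91 and 9.52 (0.24).

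The 3 other pairs that add siKLF4 share no library with this one or with each other, so their values can be set beside it. On SFM matrix without siFN, siKLF4 minus siNT gave 14 genes higher (0.519%) and 17 lower (0.63%) of 2697. On TCM matrix siKLF4 minus siNT gave 68 higher (2.45%) and 9 lower (0.324%) of 2780, and siKLF4-siFN minus siFN gave 6 higher (0.232%) and none lower of 2589. The SDs of the differences were 0.30, 0.37 and 0.16, against 0.47 here. Across the 2837 genes Pearson's r of the difference with those 3 pairs was -0.02, 0.12 and -0.02, a description across genes. Of the 92 lower genes 36, 53 and 32 were below 0 in the 3 pairs, of which 0, 1 and 0 reached -1. Of the 29 higher genes 16, 23 and 15 were above 0, of which 4, 3 and 3 reached 1. The 15 named genes furthest below 0 ranged from -0.15 to 0.77, from -1.22 to 2.67 and from -0.43 to 0.21 in these pairs. No test of the difference between pairs is possible with 1 library per condition.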

How the data were processed

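The authors deposited a table of FPKM values that has 46477 rows, each with a gene symbol, and a column for each of 8 libraries. The tools were STAR 2.4.1d and Partek and the mouse build was mm10, per the submitters' processing notes. How reads were counted, and with which annotation and strand setting, is not given in the sources used here, so values of near-identical copies, overlapping genes and antisense genes are uncertain. Of the table's names, 27 look like dates.

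Differences of log2(FPKM + 1) were taken from the deposited values in genes with FPKM of at least 5 in either library, and they understate the change of low genes. Folds are ratios of FPKM. A difference of 1 was the call, and no test was made. Symbols were matched to GENCODE M21 (90.6% of rows, 94.7% of the 2837 genes), and GC content is that of the longest transcript. The GC content step subtracts the median of genes of like GC content in 20 bins. Pseudogenes were matched to parents with blastn 2.17.0. Levels summed with copies are on the scale of the coding gene and are not plain sums of FPKM. Library depth was inferred from the steps between low FPKM values in genes longer than 600 bases. Between 43.9% and 47.1% of values lay within 0.05 read of a whole number, against a median of 6.57% to 7.17% for other step sizes, so the depths and the counting errors made from them are approximate. Counting errors leave out variation between cultures. Python 3.11.15 with pandas 2.3.3 and numpy 2.4.6 was used, and the counting was tested on simulated data.

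Named genes are the 15 largest differences in each direction among genes with official names that are not pseudogenes by name, up to 5 members with the largest absolute difference from each of 38 lists, and all markers. Klf4 and Fn1 are always given. Names outside this rule (pseudogenes named Gm, thresholds' neighbours, Eif3d, Eif3e, Lrrc58 and Rps12) were chosen after their values were seen. The members and lists were chosen with earlier results of these data known. Alternatives were another pseudocount, other filters, centring, scaling to one upper quartile and protein-coding genes alone. The GC content step and sums with copies were added after seeing the data.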

Additional observations from a re-analysis of the deposited data

Results flagged for a closer look

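Of the 3 interferon-stimulated genes that passed the filter, each had opposite signs in 2 pairs that add siKLF4. On TCM matrix, siKLF4 minus siNT was 2.67 for Cxcl10, 1.92 for Isg15 and 1.25 for Rsad2 on the log2(FPKM + 1) scale, whereas on SFM matrix siKLF4-siFN minus siFN was -1.73, -1.31 and -1.52. Each value is 1 library against 1 library, and the difference between the pairs was not tested.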

How the results depend on the processing

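The count of higher genes, 29 as reported, was 46 with a pseudocount of 0.1, 15 with a pseudocount of 5, 81 with a filter of 1 FPKM or with no filter, 15 with 5 FPKM asked of both libraries, 18 after centring on the median gene and 2 with protein-coding genes alone. It was 20 with a filter of 10 FPKM and 27 with a common upper quartile or with the GC content step. The count of lower genes, 92 as reported, was 35 with a pseudocount of 5, 177 with a filter of 1 FPKM or with no filter, 57 with a filter of 10 FPKM, 44 with 5 FPKM asked of both libraries, 45 with protein-coding genes alone and 36 with the GC content step. It was 113 with a pseudocount of 0.1, 120 after centring and 94 with a common upper quartile. Lower calls outnumbered higher calls under each of these settings. Rps28 changed sign, to 0.09, when its copies were added. Of 33 list medians, 9 changed sign after centring, 6 with a filter of 1 FPKM and 3 with the GC content step. Of 164 named genes 4 changed sign after centring, and 11 of 162 did so with the GC content step. Leaving out a replicate was not possible with 1 library per condition. No paired analysis was possible because this comparison has 1 library a side and no replicate numbers to pair. Depth limits short and low genes most. Rn7s2 rests on about 5.22 reads in SFM siKLF4-siFN, Isg15 there on about 39.3 and Rab39b on about 40.8, and Rps12l1 rests on about 9.06 reads in SFM siFN.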
